A study of Mus musculus with 9 samples.

Results

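The 34 genes described here are those that mark T cells and carry T cell receptor signaling: the CD3 chains of the receptor complex, the coreceptors, the kinases and adaptors behind the receptor, costimulatory and inhibitory receptors, adhesion receptors, cytokine receptor chains and T cell transcription factors. Their expression was measured in SVFs, the cells freed from adipose tissue by enzymes, of inguinal subcutaneous fat from wild type Balb/c mice aged 10 weeks. Groups of 3 individual mice each were sampled on days 0, 1 and 3 after surgical injury of the fat (priming), and day 0 was taken as the nonprimed group. The labels give injury as the treatment of these arrays, whereas the study's text describes their priming as injury together with ischemia, that is, ligation of the artery that feeds the fat. Neither names a sham operation for these 9 mice directly. The study's methods do use nonprimed for SVFs after a sham operation, and its results call day 0 of these arrays nonprimed. There is no unoperated group at days 1 and 3. Genes were included where the array annotation gave a probe set that symbol and no other. Of the 34 genes, 32 had such a probe set (63 probe sets), Lck and Tcf7 had none, and 29 were detected well enough to be tested among 11796 genes in all.

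T cells recognize antigen through the T cell receptor, whose CD3 and zeta chains pass the signal to the kinases Lck and Zap70 and on to the adaptor Lat, while CD4 or CD8 binds the presenting molecule. Costimulatory receptors such as CD28 strengthen this signal and CTLA-4 dampens it. Adipose tissue holds resident T cells, among them regulatory T cells that depend on Foxp3, and the inguinal fat pad of the mouse encloses a lymph node. The sources used here do not say whether that node was removed.

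The arrays were of similar quality, with 24106 to 26299 of 45101 probe sets called present and a 3'/5' signal ratio for actin of 1.15 to 1.32. One mouse stood apart. In day 1 replicate 1 the signal was the lowest of its day for 29 of the 29 tested T cell genes. The median ratio to the other mice of that day was 0.356. Its array had 24232 probe sets called present and an actin ratio of 1.22. The median signal over all its probe sets was 90.0, the lowest of the 9 arrays, beside 91.4 to 122 on the others. The change on day 1 without this mouse is given wherever it differs from the full value by over 1.5 times or loses its call. Of the 29 genes, 24 were called present on all 9 arrays, and Zap70 and Themis had passed the detection filter through day 0 alone.

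Promoter sequences from RefSeq (GRCm38.p6) were at hand for 23 of the 34 genes, as 37 windows. The 250 bases before the start site are shown for the 4 CD3 chains, the signaling chains of the receptor itself, and for Il7r, which showed the smallest change on day 1. Capitals mark the letters AGGAAGT (an ETS motif) or ACTTCCT on the other strand, and CTTTGA (TCF and LEF) or TCAAAG on the other strand. The palindrome CAGCTG (E box) and TGTGGT (RUNX) or ACCACA were also searched and are absent from these 5 windows. The motifs do not overlap one another here.
Cd3d (chr9:44981536-44981785, plus strand): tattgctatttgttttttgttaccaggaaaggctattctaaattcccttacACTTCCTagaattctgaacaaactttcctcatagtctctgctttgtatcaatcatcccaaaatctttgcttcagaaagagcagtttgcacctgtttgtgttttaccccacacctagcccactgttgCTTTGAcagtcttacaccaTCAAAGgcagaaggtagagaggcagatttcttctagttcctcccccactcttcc
Cd3e (chr9:45009612-45009861, minus strand): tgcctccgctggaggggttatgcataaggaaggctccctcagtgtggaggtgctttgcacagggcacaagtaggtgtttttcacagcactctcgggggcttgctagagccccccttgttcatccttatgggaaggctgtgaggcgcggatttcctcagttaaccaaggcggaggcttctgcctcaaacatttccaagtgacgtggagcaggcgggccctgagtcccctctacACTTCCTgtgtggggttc
Cd3g (chr9:44980432-44980681, minus strand): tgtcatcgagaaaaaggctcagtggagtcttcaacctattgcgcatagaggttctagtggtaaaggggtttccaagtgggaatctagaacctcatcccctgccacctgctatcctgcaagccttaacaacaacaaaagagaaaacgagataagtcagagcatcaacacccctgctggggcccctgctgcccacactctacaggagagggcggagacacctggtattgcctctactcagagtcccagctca
Cd247 (chr1:165788431-165788680, plus strand): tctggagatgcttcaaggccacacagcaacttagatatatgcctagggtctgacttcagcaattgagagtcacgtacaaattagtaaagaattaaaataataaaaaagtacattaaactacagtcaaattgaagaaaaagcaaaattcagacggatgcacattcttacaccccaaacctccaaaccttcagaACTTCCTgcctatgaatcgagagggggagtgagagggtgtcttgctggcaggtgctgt
Il7r (chr15:9529877-9530126, minus strand): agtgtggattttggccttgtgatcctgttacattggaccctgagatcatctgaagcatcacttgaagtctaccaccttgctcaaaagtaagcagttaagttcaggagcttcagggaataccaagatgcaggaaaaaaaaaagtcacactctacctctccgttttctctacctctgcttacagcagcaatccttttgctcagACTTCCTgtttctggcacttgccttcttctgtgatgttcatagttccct
The ETS letters stood in 11 of the 37 windows of T cell genes (29.7%) and in 7.7% of all 32851 windows. The corresponding shares were 16.2% and 13.8% for the TCF and LEF letters, 13.5% and 14.0% for RUNX, and 10.8% and 13.0% for the E box. Of the windows shown, those of Cd3d, Cd3e, Cd247 and Il7r carried the ETS letters, and that of Cd3g held none of the 4 motifs. These matches describe letters only.

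T cell genes were lower after priming. On day 1, 15 of the 29 genes fell and 0 rose, against 17.9% lower and 10.7% higher among all genes tested (limma, adjusted p under 0.05). On day 3, 17 fell and 0 rose, against 12.5% lower and 13.6% higher. The 29 include Zap70 and Themis, which passed the detection filter through day 0 alone, where their mean signals were highest. Of 25 genes with a probe set present on all 9 arrays, 14 were lower on day 1 (18.9% of all genes kept that way). The log2 change was negative for 29 of 29 genes on both days, with a median of -1.02 on day 1 and -1.08 on day 3, beside -0.13 and -0.026 over all genes. In 21 genes the 3 mice of day 1 all lay below the 3 of day 0 (26.1% of all genes did so), and in 25 genes those of day 3 did (24.6% of all genes). Signals were scaled on each array, so they give shares of RNA and not amounts. The number of T cells, their share among all cells and the RNA per T cell cannot be told apart in such bulk samples. Both comparisons share the mice of day 0.

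Without day 1 replicate 1, 12 of the 15 genes still fell on day 1, no other gene did, and the median change was -0.61 (9.58% of all genes were lower). The calls of Cd27, Foxp3 and Ubash3a were lost. The change lay nearer to 0 in 28 of the 29 genes, and in 23 genes it moved by over 1.5 times or changed sign, 10 of the 15 called genes among them. The same omission left the changes of day 3 as they were and gave a count of 24 genes (14.2% of all genes). Other mice moved the counts too, and the share of all genes called lower moved with them. The day 1 count was 8 without day 0 replicate 1 (11.1% of all genes), 7 without day 0 replicate 3 (8.48%) and 24 without day 1 replicate 3 (24.3%). The day 3 count was 11, 7 and 6 without day 0 replicates 1, 2 and 3 (9.77%, 8.38% and 7.8% of all genes), and 6 and 4 without day 3 replicates 1 and 2 (7.51% and 7.04%). Whichever of the 9 arrays was left out, Cd3e, Cd6, Cd8a, Cd8b1, Cd96 and Skap1 stayed below the threshold on day 1, and Cd3g, Cd8a, Cd8b1 and Cd96 on day 3. The other 9 calls of day 1 and 13 of day 3 were lost without at least 1 array.

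**Figure D1:**
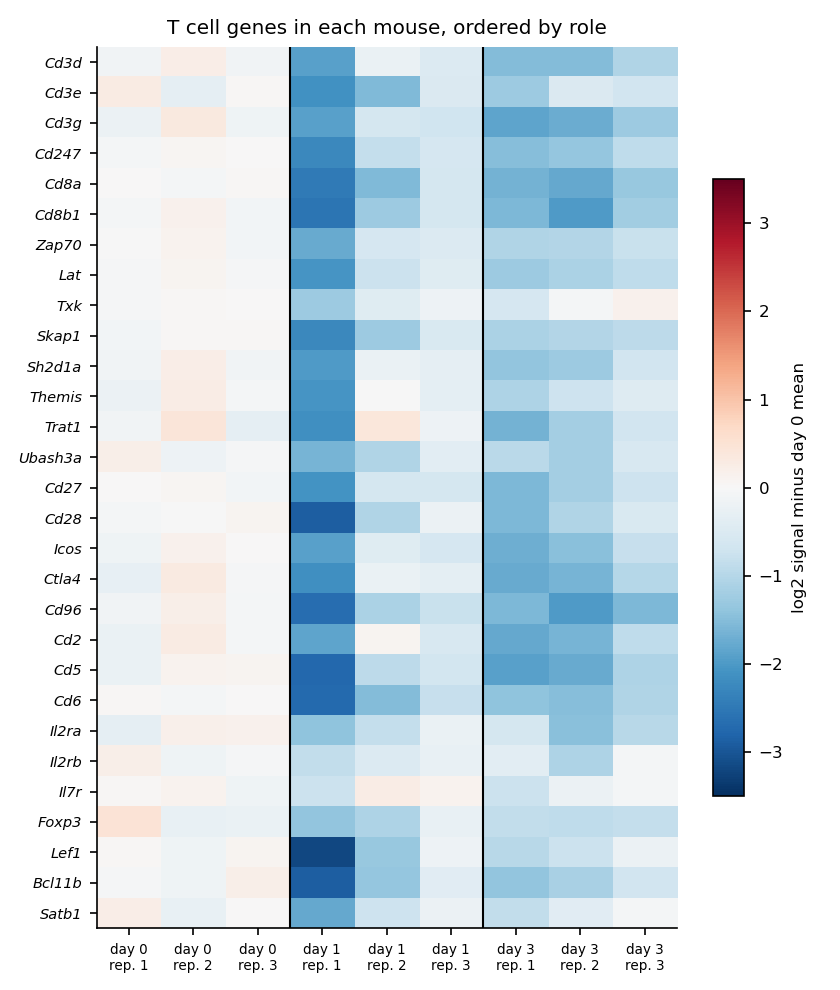
Log2 signal of each of the 29 tested T cell genes (vertical axis, ordered by role) in each of the 9 mice (horizontal axis), relative to the mean of day 0, with blue for lower and red for higher. The column of day 1 replicate 1 is the darkest of its day, and Il7r and Txk are among the palest genes.

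The 4 CD3 chains, which assemble with the antigen receptor and pass its signal into the cell, fell in 3 cases on each day, and none of the 4 overlapped with day 0 on either day. Cd3d had signals of 6186, 7834 and 6185 on day 0, of 1787, 5703 and 4814 on day 1, and of 2335, 2327 and 3244 on day 3. Its change was -0.87 ± 0.34 (SE, n = 3 mice a day) on day 1, which missed the threshold (limma, adjusted p = 0.0741) and was -0.35 without day 1 replicate 1, and -1.36 ± 0.34 on day 3 (limma, adjusted p = 0.0129). Replicates 2 and 3 of day 1 thus stayed close to the nonprimed range for this gene, and replicate 1 was far lower. Cd3g, which pairs with Cd3e, had 4032, 5926 and 4239 on day 0, 1260, 3027 and 2848 on day 1, and 1299, 1402 and 1943 on day 3. It fell on both days, by log2 changes of -1.07 ± 0.30 and -1.61 ± 0.30 (limma, adjusted p = 0.0205 and 0.00241), and without day 1 replicate 1 the change on day 1 was -0.67 (adjusted p = 0.0439).

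Cd3e showed the opposite order, with the lower group on day 1. Its signals were 1699, 1118 and 1425 on day 0, 318, 475 and 985 on day 1, and 582, 986 and 884 on day 3, with changes of -1.40 ± 0.34 and -0.81 ± 0.34 (limma, adjusted p = 0.0127 and 0.108). Cd247, which encodes the zeta chain that recruits Zap70, was measured by 4 probe sets, and the 3 that passed the detection filter all went down. The dimmest of these 3 (-0.90 and -1.29) had passed through day 0 alone, which favors lower values later. The probe set that did not pass, called present on 4 arrays, was -0.51 on day 1 and 0.056 on day 3. The brightest had 1557, 1712 and 1671 on day 0, 347, 920 and 1099 on day 1, and 583, 647 and 892 on day 3. It fell on both days, by log2 changes of -1.22 ± 0.34 and -1.24 ± 0.34 (limma, adjusted p = 0.0214 and 0.0199), with -0.71 on day 1 without replicate 1 of that day (adjusted p = 0.0231).

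**Figure D2:**
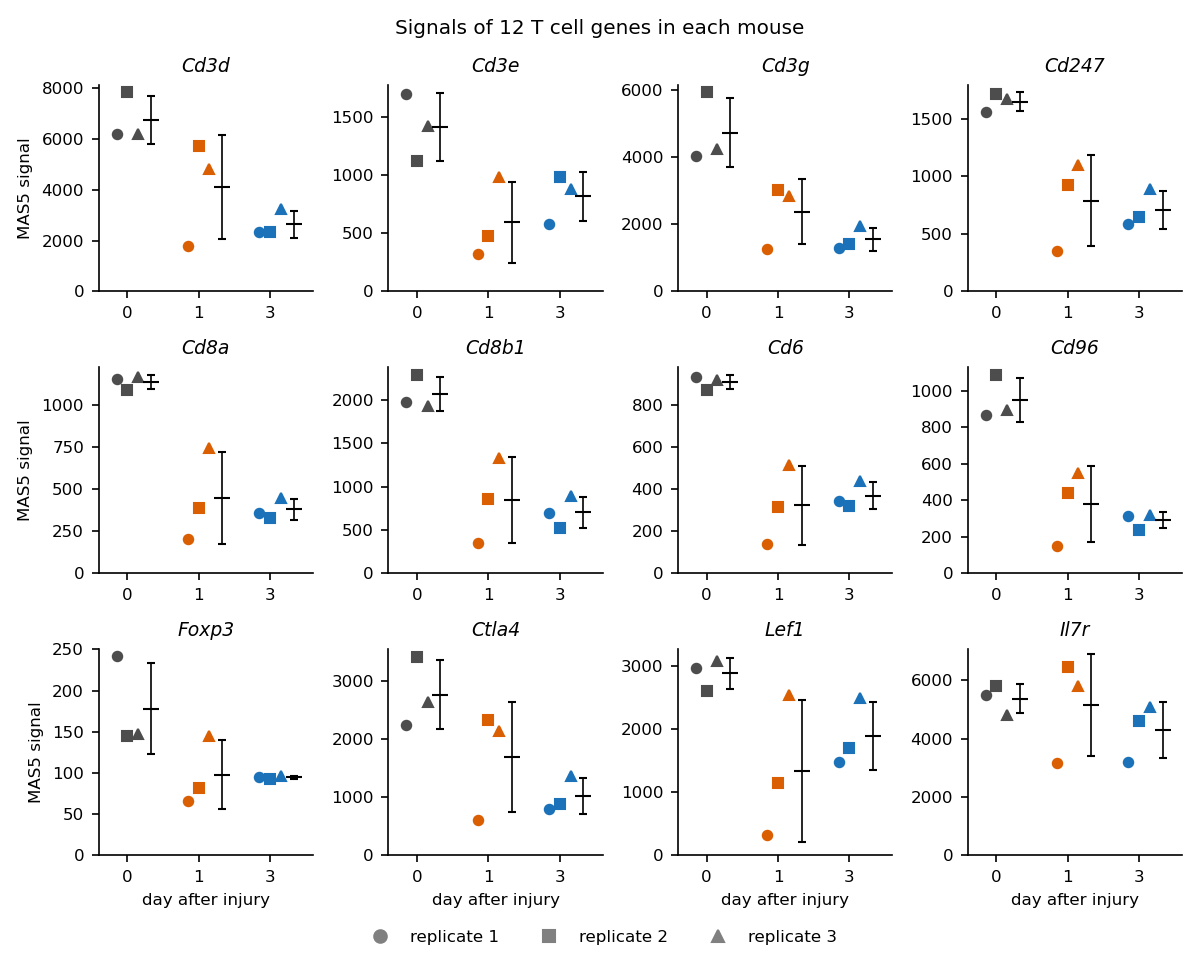
MAS5 signal (vertical axis, linear, from 0) against the day after injury (horizontal axis) for 12 T cell genes, with 1 symbol per mouse and the mean ± SD of the 3 mice of each day beside them. Cd8a, Cd8b1, Cd6 and Cd96 of days 1 and 3 lie wholly below day 0, while Il7r overlaps on both days.

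The coreceptor chains of cytotoxic T cells fell on both days. Cd8a had 1156, 1094 and 1170 on day 0, 207, 391 and 745 on day 1, and 361, 331 and 450 on day 3. The mice of day 0 lay within a narrow band and every later mouse lay below it, a change of -1.54 ± 0.34 and -1.59 ± 0.34 (limma, adjusted p = 0.0077 and 0.00582). All 5 probe sets of Cd8a that passed the filter were lower on both days, but some had passed through day 0 alone, which favors lower values later. Besides the one above, another was called present on every array, and it gave -1.70 and -1.63. Cd8b1, the partner chain, had 1979, 2285 and 1929 on day 0, 349, 860 and 1332 on day 1, and 691, 525 and 889 on day 3. It fell on both days, by log2 changes of -1.48 ± 0.38 and -1.59 ± 0.38 (limma, adjusted p = 0.0143 and 0.00986), and the value for day 1 was -0.94 without replicate 1 of that day (adjusted p = 0.0197). Cd4, the coreceptor of helper T cells, could not be tested, since its 2 probe sets were called absent on all 9 arrays, with the brighter one between 19.2 and 199.

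Among the kinases and adaptors, 8 of 9 were tested and 4 fell on each day, with medians of -0.90 and -0.98. Zap70, the kinase bound by the zeta chain, had 613, 674 and 587 on day 0, 183, 417 and 449 on day 1, and 302, 307 and 364 on day 3. It fell on both days, by log2 changes of -0.94 ± 0.28 and -0.95 ± 0.28 (limma, adjusted p = 0.0267 on both days), and it was called absent in day 1 replicate 1 and day 3 replicate 1. It thus passed the detection filter through day 0 alone, which favors lower values later. Its change on day 1 was -0.53 without day 1 replicate 1 (adjusted p = 0.0363). The other Zap70 probe set that passed the filter was dimmer on day 0 and gave -0.28 and -0.053, far less than the brighter one, and one that did not pass gave -0.29 and 0.064. The adaptor Lat (-1.08 on both days), Skap1, an adaptor that links the receptor to integrins (-1.35 and -1.02), and Ubash3a, a suppressor of receptor signaling (-1.02 and -0.90), fell on both days as well (limma, adjusted p from 0.01 to 0.039). Without day 1 replicate 1 the changes on day 1 were -0.58 for Lat, -0.89 for Skap1 and -0.72 for Ubash3a, and the call of Ubash3a was lost (adjusted p = 0.0785). Sh2d1a, the adaptor of SLAM receptors, Themis, Trat1 and Txk did not pass the test on either day. Their changes ran from -0.85 to -0.62 on day 1, from -0.30 to 0.11 on day 1 without its replicate 1, and from -1.17 to -0.17 on day 3. The nearest to day 0 was Txk, a Tec family kinase, with 734, 780 and 769 on day 0 and 505, 723 and 850 on day 3, a change of -0.17 with a 95% interval from -0.74 to 0.40.

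Of the 7 costimulatory and inhibitory molecules, 5 were tested, of which 2 fell on day 1 and 4 on day 3. Cd96, a receptor that competes for nectin-family ligands, showed the largest fall of the 29 genes on day 3. It had 868, 1085 and 893 on day 0, 149, 441 and 548 on day 1, and 315, 239 and 318 on day 3, with changes of -1.52 ± 0.37 and -1.71 ± 0.37 (limma, adjusted p = 0.0127 and 0.00652). Leaving out day 1 replicate 1 gave -0.94 on day 1 (adjusted p = 0.00639). Cd27, a receptor of the TNF receptor family, fell on both days, by log2 changes of -1.10 and -1.16 (limma, adjusted p = 0.0326 and 0.0276), and its call on day 1 was lost without day 1 replicate 1 (-0.61, adjusted p = 0.0683). Cd40lg was called absent or marginal on all arrays, and Cd226 was not present on all 3 arrays of any day.

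Icos and Ctla4, a costimulatory and an inhibitory receptor of activated and regulatory T cells, passed the test on day 3. Icos had 2600, 3217 and 2933 on day 0, 772, 2184 and 1927 on day 1, and 887, 1049 and 1654 on day 3 (-0.97 ± 0.34 and -1.33 ± 0.34, limma, adjusted p = 0.0503 and 0.014). Ctla4 had 2243, 3423 and 2648 on day 0, 612, 2331 and 2141 on day 1, and 803, 879 and 1376 on day 3 (-0.91 ± 0.42 and -1.46 ± 0.42, limma, adjusted p = 0.119 and 0.0243). For both, replicates 2 and 3 of day 1 lay above every mouse of day 3, and without replicate 1 the changes on day 1 were -0.50 for Icos and -0.29 for Ctla4. Cd28, the main costimulatory receptor, had 3294, 3405 and 3666 on day 0, 465, 1658 and 3010 on day 1, and 1157, 1650 and 2405 on day 3. The mice of day 1 spread widely, and its changes of -1.38 ± 0.51 and -1.05 ± 0.51 missed the threshold (limma, adjusted p = 0.0621 and 0.152) although no later mouse reached day 0. Its change on day 1 was -0.63 without day 1 replicate 1.

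Of the adhesion and scavenger-type receptors Cd2, Cd5 and Cd6, 2 fell on day 1 and 3 on day 3. Cd6, which binds ALCAM on presenting cells, had 935, 870 and 920 on day 0, 138, 318 and 514 on day 1, and 345, 321 and 441 on day 3. Its change of -1.69 ± 0.36 on day 1 was the largest of the 29 genes (limma, adjusted p = 0.00591), and it was -1.31 ± 0.36 on day 3 (adjusted p = 0.0192). Cd5, which restrains receptor signaling, fell on both days, by log2 changes of -1.44 and -1.58 (limma, adjusted p = 0.0285 and 0.0198), with -0.79 on day 1 without its replicate 1 (adjusted p = 0.0374). Cd2, which binds CD48, gave -0.76 on day 1 (limma, adjusted p = 0.161), or -0.23 without replicate 1 of that day, and fell by 1.43 on day 3 (adjusted p = 0.0207).

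**Figure D3:**
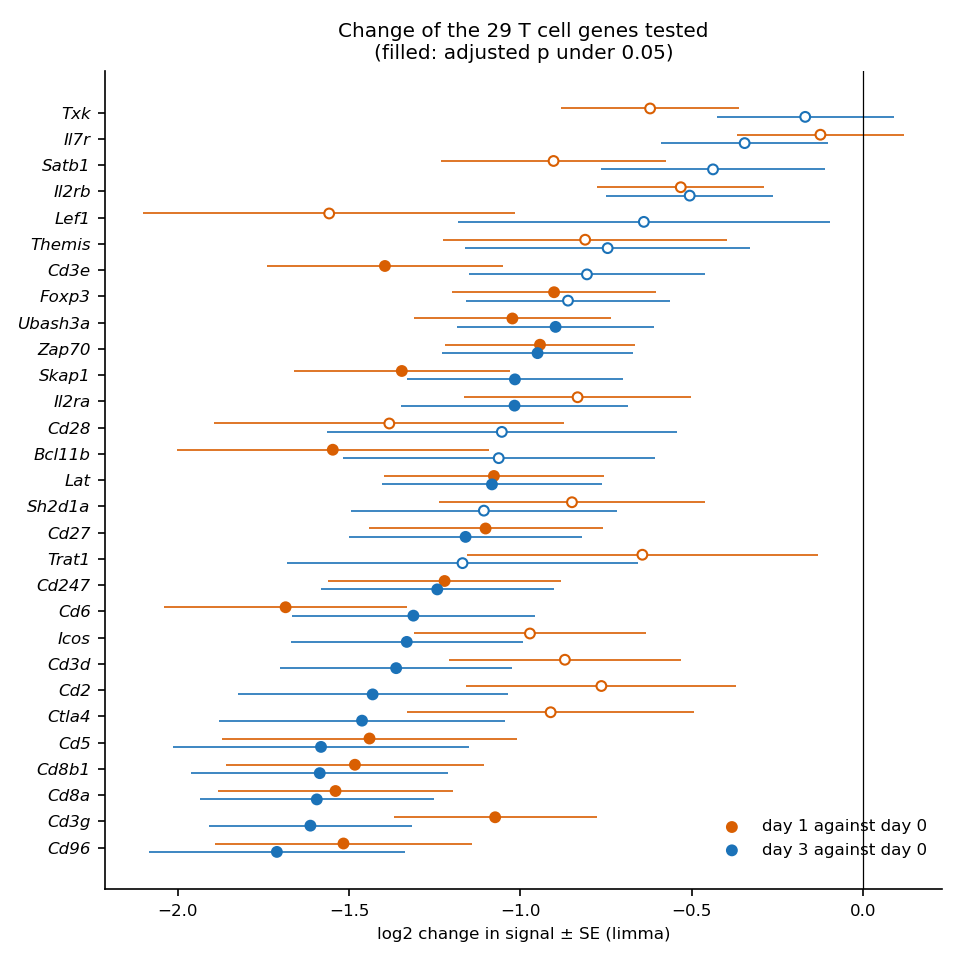
Log2 change ± SE (horizontal axis) of each tested T cell gene (vertical axis) on day 1 (orange) and day 3 (blue) against day 0, from limma, with filled symbols for an adjusted p under 0.05. All values lie left of 0, from -1.71 for Cd96 on day 3 to -0.12 for Il7r on day 1.

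The cytokine receptor chains changed least. Il7r, the receptor chain for the survival cytokine interleukin 7, had 5488, 5803 and 4820 on day 0, 3153, 6461 and 5813 on day 1, and 3205, 4602 and 5068 on day 3. The groups overlapped, and the changes were -0.12 (95% interval -0.66 to 0.41) and -0.35 (-0.88 to 0.19), with a limma adjusted p of 0.72 and 0.323. Without day 1 replicate 1 the change on day 1 was 0.19 (adjusted p = 0.473). Il2rb, a chain shared by the receptors of interleukins 2 and 15, had 556, 428 and 462 on day 0, 264, 345 and 399 on day 1, and 372, 227 and 455 on day 3. It missed the threshold on both days (-0.53 and -0.51, limma, adjusted p = 0.118 and 0.15). Il2ra, the high-affinity chain of regulatory and activated T cells, was dim, with 94.2, 131 and 128 on day 0, 43.5, 65.1 and 99.0 on day 1, and 76.7, 42.2 and 59.2 on day 3. It gave -0.83 ± 0.33 on day 1 (limma, adjusted p = 0.0795), or -0.54 without day 1 replicate 1, and fell by 1.02 ± 0.33 on day 3 (adjusted p = 0.0423). It was called absent in day 3 replicates 1 and 2, and its day 3 call was lost in 5 of the 9 fits that each left out 1 array. The other Il2ra probe set that passed the filter, also dim, gave -1.27 and -1.31.

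Among the transcription factors, 2 of 4 tested fell on day 1 and 0 on day 3, where the unadjusted limma p was under 0.05 for 2 of the 4. Foxp3, which specifies regulatory T cells, had 242, 145 and 147 on day 0, 66.0, 82.3 and 145 on day 1, and 95.7, 93.0 and 96.6 on day 3. It fell by 0.90 ± 0.30 on day 1 (limma, adjusted p = 0.0415) and gave -0.86 ± 0.30 on day 3 (adjusted p = 0.0522), and 1 of its mice on day 0 was far above the other two. Without day 1 replicate 1 the limma adjusted p for day 1 was 0.153. The call of day 1 was lost in 7 of the 9 fits that each left out 1 array, among them those without each array of day 3. The mice of day 1 overlapped with those of day 0. Bcl11b, which maintains T cell identity, had 2242, 2072 and 2649 on day 0, 315, 899 and 1739 on day 1, and 885, 1049 and 1453 on day 3. Its 4 probe sets were lower on both days, and it fell by 1.55 ± 0.46 on day 1 (limma, adjusted p = 0.0267) against -1.06 ± 0.46 on day 3 (adjusted p = 0.108). Leaving out day 1 replicate 1 gave -0.88 on day 1 (adjusted p = 0.0466).

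Lef1, a factor of naive T cells, had 2970, 2606 and 3082 on day 0, 319, 1150 and 2552 on day 1, and 1477, 1707 and 2500 on day 3. The mice of day 1 spread widely here too, and the changes of -1.56 ± 0.54 and -0.64 ± 0.54 missed the threshold (limma, adjusted p = 0.0504 and 0.414), with -0.75 on day 1 without its replicate 1. The dimmer Lef1 probe set, which also passed the filter, gave -1.47 and -1.03. Satb1, a chromatin organizer of the thymus and of T cells, had 8128, 5766 and 6879 on day 0, 1992, 4149 and 5962 on day 1, and 3796, 5200 and 6568 on day 3. It overlapped with day 0 on both days (-0.90 and -0.44, limma, adjusted p = 0.0584 and 0.352), gave -0.46 on day 1 without replicate 1 of that day, and 1 of its 5 probe sets was 0.022 above day 0 on day 3 on the log2 scale.

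Days 1 and 3 were not told apart for any T cell gene by the 9-array fit. Of the 29 genes, 0 rose and 0 fell from day 1 to day 3 (9.66% and 4.54% of all genes did), 0 had an unadjusted limma p under 0.05 in either direction, and every gene overlapped between the days. The changes ran from -0.67 for Cd2 to 0.92 for Lef1 (limma, adjusted p = 0.272), with a median of -0.021 beside 0.085 over all genes. Without day 1 replicate 1, 9 genes were lower on day 3 than on day 1 (3.51% of all genes were), among them Cd3d (-1.01 ± 0.17, limma, adjusted p = 0.00487), Ctla4 (-1.17 ± 0.23, adjusted p = 0.0109) and Cd3g (-0.95 ± 0.20, adjusted p = 0.0147), and the median was -0.52. That mouse stood out as the lowest of its day for these same genes. Leaving it out thus raised their day 1 means by construction, and these values are no separate test of the days. Without day 1 replicate 3, 4 genes were higher on day 3 (15.5% of all genes were).

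The signal of the CD3 chains offers a scale within each array on which the other 25 genes can be read. Its geometric mean was 2850, 3070 and 2811 on day 0, 706, 1657 and 1963 on day 1, and 1007, 1201 and 1493 on day 3. Relative to it the 25 genes had a median log2 difference of 0.17 on day 1, with a range from -0.55 to 1.02, and of 0.19 on day 3, with a range from -0.45 to 1.09. On day 1 the ratio lay above the range of day 0 for 4 genes (69.3% of all genes did so) and below it for 3 (0.0763%), and on day 3 it lay above for 7 (90.1%) and below for 1 (0.212%). The CD3 chains themselves fell, and most genes of the array lay above day 0 on this scale. On day 1 the ratio of Il7r moved most, being 1.02 above day 0 on the log2 scale, and it was 0.91 above on day 3, with no overlap on either day. The ratio of Txk lay 0.52 and 1.09 above and that of Zap70 0.20 and 0.31 above, also with no overlap. Satb1 (0.82) and Lef1 (0.62) lay above their day 0 range on day 3. The dimmer Lef1 probe set had fallen further on day 3 (-1.03 beside -0.64), and its ratio was not computed. Cd8b1 lay below it on both days (-0.34 and -0.33), as did Cd96 (-0.38) and Cd6 (-0.55) on day 1.

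A limma fit on values scaled this way, chosen after the data were seen, called 0 of the 29 genes lower on either day. The 29 include the CD3 chains themselves, whose mean change is 0 on this scale by construction. The fit called 0 higher on day 1, where 46.3% of all genes were higher on that scale, and 1, Txk, higher on day 3, where 74.1% were (limma, adjusted p = 0.0249). Il7r had an adjusted p of 0.0532 and 0.0591 in the same fit.

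**Figure D4:**
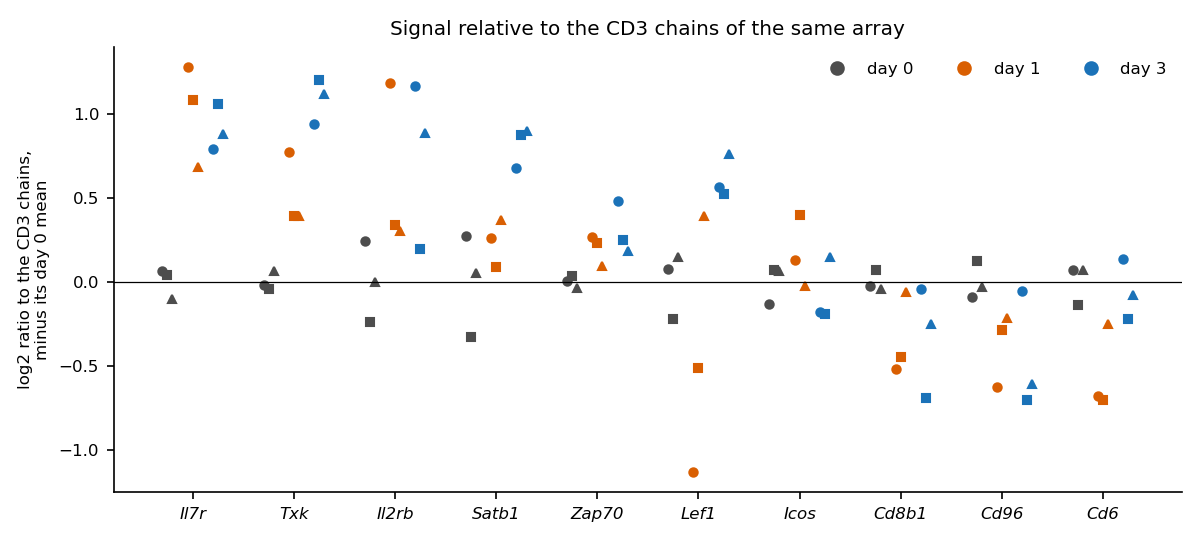
Log2 ratio of 10 T cell genes to the mean of the 4 CD3 chains of the same array, minus the mean ratio of day 0 (vertical axis), for the 3 mice of days 0 (grey), 1 (orange) and 3 (blue). Circles, squares and triangles are replicates 1, 2 and 3. Il7r, Txk, Il2rb, Satb1 and Zap70 lie above 0 in all 6 primed mice, whereas Cd8b1 and Cd96 lie below 0 in all 6.

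Other genes of the T cell pathway moved in part with the members. Of 33 tested genes of receptor signaling outside the members, 17 fell and 1 rose on day 1, and 6 fell and 0 rose on day 3. Among all genes 17.9% fell and 10.7% rose on day 1, and 12.5% fell and 13.6% rose on day 3. The counts of the further lists below stand beside the same shares. Prkcq, the protein kinase C of the T cell synapse (-1.39 ± 0.40), Rasgrp1, the exchange factor for Ras (-1.35 ± 0.41), Plcg1, the phospholipase activated by Lat (-1.17 ± 0.20), and Nfatc2, a calcium-driven factor (-1.16 ± 0.21), had the largest called falls on day 1 (limma, adjusted p from 0.00202 to 0.0301). On day 3 only Plcg1 of these was still lower by the test (-0.70, adjusted p = 0.0265), while Prkcq (-1.13) and Rasgrp1 (-0.97) missed it and Nfatc2 stood at 0.32. From day 1 to day 3, 4 of the 33 genes rose and 1 fell, near the shares of all genes (9.66% and 4.54%). Nfatc2 rose by 1.47 ± 0.21 (limma, adjusted p = 0.000965). The leukocyte phosphatase Ptprc (CD45) gave -0.21 on day 1 (limma, adjusted p = 0.203) and fell by 0.43 on day 3 (adjusted p = 0.0215). Of 16 genes of naive T cells and lymph node homing, 10 fell on day 1 and 7 on day 3, and 0 rose. Among them were Dapl1 (-1.15 and -1.76) and Klf2, which drives exit and homing receptors (-1.20 and -1.04; limma, adjusted p from 0.00212 to 0.0287). The homing receptor Ccr7 had 12520, 14650 and 12460 on day 0, 2881, 10860 and 11340 on day 1, and 4729, 5317 and 8741 on day 3 (-0.90 and -1.13, limma, adjusted p = 0.13 and 0.0715).

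Genes of helper and regulatory subsets split. Of 7 tested genes of type 2 helper cells and innate lymphoid cells, 2 fell and 0 rose on day 1 and 3 fell and 1 rose on day 3, with medians of 0.27 and -0.68. Of 7 tested genes of type 1 cells, 2 fell and 1 rose on day 1 and 4 fell and 0 rose on day 3, with medians of -0.75 and -0.77. Gata3, the factor of type 2 helper cells and innate lymphoid cells, fell on both days, by log2 changes of -1.78 ± 0.38 and -1.73 ± 0.38 (limma, adjusted p = 0.00655 and 0.00699), as did Il18r1 of type 1 cells (-1.49 and -1.10, adjusted p = 0.00108 and 0.00565). The rises were Il18rap, its partner chain, on day 1 (0.55, limma, adjusted p = 0.0178) and the factor Maf on day 3 (0.55, adjusted p = 0.00193). Of 12 tested genes of the regulatory T cell list, 4 fell and 4 rose on day 1, and 5 fell and 3 rose on day 3. The falls included Izumo1r, Tnfrsf4 and Gpr83, and the rises included Il10 (1.58 and 1.79) and Capg (1.08 and 1.02), which macrophages express as well. Of 10 activation and checkpoint receptors, 3 rose on each day, namely Cd44, Havcr2 and Cd244a, all of which myeloid cells can carry, while 2 fell on day 1 and 7 on day 3, with Slamf1 at -1.35 and Btla at -1.26 on day 3 (limma, adjusted p = 0.0119 and 0.0239).

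Markers of other cells moved alongside. Of 13 tested B cell genes, 6 fell on day 1 and 9 on day 3 and 0 rose, with Ms4a1 (CD20) at -0.71 and -1.41 (limma, adjusted p = 0.1003 and 0.00596). The mean of the B cell list relative to day 0 ran from -0.29 to 0.52 over the mice of day 0, from -1.45 to -0.30 on day 1 and from -1.69 to -0.76 on day 3. That of the 8 genes of lymph node stroma and venules ran from -0.10 to 0.07, from -1.04 to -0.07 and from -1.38 to -0.86, and 3 fell and 1 rose on day 1 while 5 fell and 0 rose on day 3. The rise was Cxcl13, a B cell attractant (0.83 on day 1, then -1.28 on day 3). Glycam1, a ligand of the homing receptor made by lymph node venules, had 4754, 6369 and 6767 on day 0, 432, 2535 and 4064 on day 1, and 1289, 562 and 1033 on day 3. Day 1 replicate 1 was the lowest of its day for both lists, as for the T cell genes. The part of lymph node content in the T cell result was not tested.

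Genes of NK cells moved both ways, with 3 of 10 higher and 1 lower on day 1 and 2 higher and 1 lower on day 3, and Ncr1 at -0.32 and -0.48 (limma, adjusted p = 0.326 and 0.165). Of 10 neutrophil genes, 8 rose and 0 fell on day 1 and 7 rose and 1 fell on day 3, with S100a8 up by 6.22 and 4.11 on the log2 scale. Of 12 monocyte and macrophage genes, 7 rose on both days, and 1 fell on day 1 and 2 on day 3. The neutrophil mean was highest in day 1 replicate 1, at 4.29, against 3.84 and 3.75 in the other mice of that day. Endothelial genes were lower in 7 of 10 cases on day 1 and 3 on day 3 and higher in none, with medians of -0.62 and -0.15, and their marker Pecam1 gave -0.35 and -0.15 without passing the test. Of 11 adipose stromal genes, 4 fell and 0 rose on day 1 and 5 fell and 1 rose on day 3, with medians of -0.26 and -0.38, and their marker Pdgfra gave -0.023 and -0.18 without passing. The part of these other cells in the T cell result was not tested either.

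**Figure D5:**
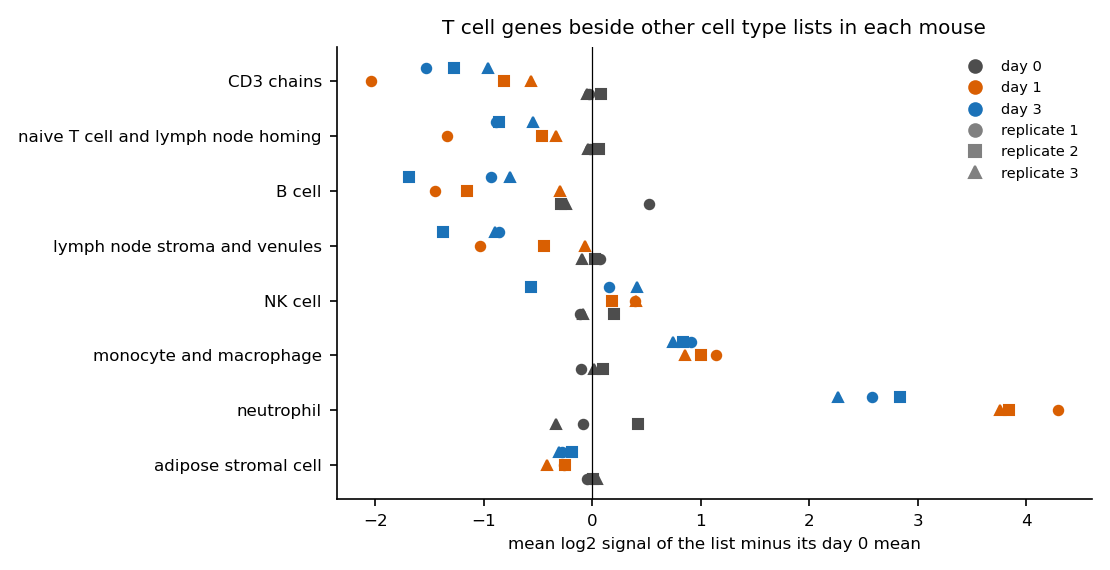
Mean log2 signal of 8 gene lists relative to day 0 (horizontal axis) in each mouse, with colors for the day and symbols for the replicate. The CD3 chains of the 6 primed mice lie between -2.04 and -0.57, the neutrophil list between 2.26 and 4.29, and the NK cell list on both sides of 0.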

How the data were processed

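RNA of SVFs from 9 mice, 3 a day, was measured on Affymetrix Mouse430_2 arrays. As deposited by the authors, probe intensities had been summarized with MAS5 into a signal per probe set, scaled to a trimmed mean of 500, with a detection call and a detection p-value for each. The tool is named in the submitters' processing notes. The deposited series table holds the same signal intensities within 0.0005 percent. Of 45101 probe sets, 34945 carry 1 gene symbol in the platform annotation. Symbols on 932 probe sets with several and 9160 with none were not used. A probe set was kept where some day had a present call on each of its 3 arrays, and the brightest stood for its gene. Log2 signals without offset were fitted over all 9 arrays with limma 3.58.1 (trended eBayes, R 4.3.3), with Benjamini-Hochberg adjustment over 11796 genes. SE are moderated. Arrays carry no read depth, and their number limits the precision. Replicate numbers pair no mice. The code was tested on simulated data. The 34 genes and 16 further lists were chosen with earlier results of these data known. Per-mouse values are given for a fixed set of receptor, coreceptor, signaling and factor genes and for other members among the 3 largest called changes of a comparison. From each further list, its defining genes and up to 4 called genes with large changes are named.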

Additional observations from a re-analysis of the deposited data

How the results depend on the processing

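The day 1 and day 3 medians stayed negative under every alternative setting but the scaling to the CD3 chains, from -1.08 to -0.90 and from -1.22 to -1.02, and from -1.26 to -0.61 and -1.32 to -0.97 with each array left out. Counts moved more. At an adjusted p under 0.01, 3 genes were lower on day 1 and 4 on day 3 (5.99% and 5.35% of all genes). By a filter like that of the methods (2-fold and analysis of variance) 7 and 6 were lower (2.78% and 2.87% of all genes). The study's own filter used a repeated-measurements analysis of variance, whereas an ordinary analysis of variance by day was used here. With the replicate number as a block, 22 and 20 were lower (18.5% and 13.1%), although the numbers pair no mice (correlations of same-numbered arrays -0.15 to 0.33), and the block changed no direction. Leaving out each array gave 7 to 24 lower genes on day 1 and 4 to 24 on day 3, and 0 to 4 higher and 0 to 9 lower genes from day 1 to day 3. Scaled to the CD3 chains, a setting chosen after seeing the data, 0 genes were lower on either day (0.00848% of all genes were on day 1). There 1 gene was higher on day 3, and the medians were 0.12 and 0.17 while those of all genes were 1.01 and 1.23. On that scale 18 of the 29 genes lay above day 0 on day 1 and 19 on day 3. The CD3 chains are among the 29, and their mean change there was 0 by construction. In the other settings 4 changes of single genes against day 0 changed sign, all without passing the test after the change. On day 1 without day 1 replicate 1 these were Il7r, with a range of -0.32 to 0.19 over the arrays left out, and Trat1, with -1.16 to 0.11. On day 3 without day 3 replicate 1 it was Txk, with -0.33 to 0.042. Zap70 gave 0.064 on day 3 without the detection filter, where another, brighter probe set stood for the gene. Lck and Tcf7 were not analysed here, and 3 mice a day limit the precision.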

Other observations

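Probe sets that the annotation assigns to variable segments of the T cell receptor loci were looked at after their values were seen. Of 17 such probe sets, 4 had signals over 1000 in each mouse of day 0, and the other 13 did not exceed 259 on any array. In all, 15 of the 17 were below day 0 on day 1 and 16 on day 3. Among the dim ones, that of Trav13-5 was above day 0 on both days (0.62 and 0.45 on the log2 scale) and that of Trbv13-2 on day 1 (0.11). The brightest assigned to Trav9d-3 (alpha chain locus) had 10630, 10240 and 12040 on day 0, 1603, 4994 and 8439 on day 1, and 3569, 4363 and 5618 on day 3, and the brightest assigned to Trbv1 (beta chain locus) had 9606, 11540 and 10750, then 2627, 7583 and 7144, then 4057, 3961 and 5415. The log2 differences from day 0 were -1.43 and -1.30 for the first and -1.02 and -1.26 for the second. Such probe sets may share sequence among segments, so the segment itself is uncertain.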
